A study of Mus musculus with 4 samples.

Results

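The 10 genes described here (*Pdgfra*, *Pdgfrb*, *Sirpa*, *Vcam1*, *Alcam*, *Kit*, *Cxcr4*, *Cxcl12*, *Prom1* and *Thy1*) are cell surface proteins, plus the ligand of *Cxcr4*, that are used to recognise or sort cardiac progenitor cells (CPCs) and other mesodermal cells. They were chosen by name, as 10 of the 20701 gene symbols in the table of transcript counts, and all 10 were found. They account for 31 of its 31507 transcript entries, and the entry with the most counts over all libraries stood for each gene. The study asked how loss of Isl1, a LIM homeodomain transcription factor of second heart field progenitors, alters gene expression in CPCs. Poly(A) RNA was sequenced from 4 libraries of CPCs sorted at day 5 of differentiation, 2 labelled control and 2 labelled Isl1_KO.

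Both groups were made from mouse E14 Tg(Nkx2-5-EmGFP) embryonic stem (ES) cells, in which a green fluorescent protein (GFP) reports *Nkx2-5*, and both were sorted for GFP. The Isl1_KO cells are *Isl1*-/- clones of that line. The methods of the study name 2 different clones for each group, so by that account a library stands for a clone and its differentiation. The sample titles give only group and replicate number. The titles and the methods of the study say knockout while the design text deposited with the data says knockdown, and the titles were followed here. The ES cells were kept on a layer of mouse embryonic fibroblasts before differentiation.

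Surface receptors and adhesion molecules let a progenitor read its surroundings and hold on to its neighbours. Platelet-derived growth factor (PDGF) receptors and Kit are receptor tyrosine kinases, the Cxcl12 and Cxcr4 pair steers migrating cells, and the immunoglobulin-domain proteins Alcam and Vcam1 join cells to each other. Pdgfra is used to recognise cardiogenic mesoderm, and Sirpa, Vcam1 and Alcam to enrich committed CPCs or early cardiomyocytes. Kit, Prom1 and Thy1 are shared with stem cells and other lineages and are less restricted to the heart.

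Summed over the entry kept for each gene, the libraries held 8821517 and 9147425 counts in control and 13186109 and 11388333 in Isl1_KO. *Isl1* itself was read 309 and 326 times in the control libraries and 17 and 24 times in the Isl1_KO libraries, and *Nkx2-5*, the gene behind the sort, was at 20.5 ± 0.925 CPM (counts scaled to 1000000 per library; mean ± SD, n = 2) in control and 4.55 ± 0.303 in Isl1_KO. The 2 control libraries differed little more than by counting error (chi-square per degree of freedom 1.13, over 12699 genes), whereas the 2 Isl1_KO libraries stood far apart (18.7). Whether the control libraries are separate clones was not tested, and their spread may be technical. Differences between Isl1_KO libraries are given for each gene below. Of the marker lists of other cell types, the summed level of the fibroblast and feeder cell list was 2190 and 2137 CPM in control, 1370 in Isl1_KO replicate 1 and 496 in replicate 2. Of its 8 genes 7 could be tested, and all 7 were lower in both Isl1_KO libraries than in either control library, as were 29.0% of all genes tested. None had an adjusted p under 0.05 in edgeR, where 5 had an unadjusted p under 0.05, and DESeq2 called 1 (*Dcn*, lower). *Fap* was at 0 counts throughout. The pericyte and smooth muscle list summed to 2855 and 2874 CPM in control against 2419 and 1069 in Isl1_KO, with 1 of 6 genes tested called lower in edgeR (*Rgs5*). DESeq2 called 3 of them, *Rgs5* and *Cspg4* lower and *Notch3* higher (213 and 222 CPM in control, 299 and 358 in Isl1_KO). *Acta2* was the largest part of that sum in control (1638 and 1636 CPM, against 1137 and 276 in Isl1_KO). In edgeR the cardiac progenitor list had 5 of 9 genes tested called lower (758 and 772 CPM in control, 358 and 405 in Isl1_KO). These were *Isl1*, the gene knocked out, *Nkx2-5*, the gene behind the sort, and *Tbx5*, *Hand2* and *Mef2c*. *Fgf8* overlapped, and *Fgf10* alone was higher in both Isl1_KO libraries, without a call (45 and 46.4 CPM in control, 48.7 and 114 in Isl1_KO). The cardiomyocyte list was called lower in 6 of 6 genes (1396 and 1476 against 31.1 and 25.9). Of all genes tested in edgeR, 1.94% were called lower and 0.503% higher, and 23.3% had an unadjusted p under 0.05. DESeq2 called 4.67% of its genes in either direction. The endothelial list summed to 163 and 166 CPM in control against 148 and 94.6 in Isl1_KO, with 0 of 6 genes called in edgeR, 4 at an unadjusted p under 0.05 and 1 in DESeq2 (*Tek*, lower). The blood list summed to 413 and 425 CPM against 354 and 277, with 1 of 5 genes called in edgeR (*Runx1*, higher) and 2 in DESeq2 (*Runx1* and *Tal1*, both higher), while *Hbb-bh1* was 289 ± 6.29 CPM in control and 101 ± 83.2 in Isl1_KO. The neural crest, pluripotent cell, endoderm and neural progenitor lists had no gene called in either tool, with sums of 8.16 to 21, 10.7 to 25.2, 99.2 to 111 and 194 to 264 CPM. These lists are not exclusive to a cell type. In such bulk libraries fewer cells of a type and less RNA per cell cannot be told apart, and the part of these shifts in the values below was not tested.

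Per length of transcript, as CPM per kilobase (RPKM), the 2 PDGF receptors led the 10 genes in control CPCs: *Pdgfrb* at 56.9 ± 0.481 and *Pdgfra* at 45.1 ± 1.41 (SD, n = 2). *Kit* followed at 20.8 ± 0.22 RPKM and *Cxcl12* at 10.7 ± 0.488. *Cxcr4* (8.54 ± 1.22) and *Sirpa* (7.95 ± 0.0208) overlapped, and no other neighbours in this order did. *Prom1* stood at 6.44 ± 0.825 RPKM, *Alcam* at 4.45 ± 0.417, *Thy1* at 1.67 ± 0.139 and *Vcam1* at 1.35 ± 0.058. In Isl1_KO the order loosened: *Pdgfrb* (52.8 ± 23.6 RPKM) still led, and *Pdgfra* (27.1 ± 6.06), *Cxcr4* (19.9 ± 7.37) and *Kit* (19.3 ± 6.66) could not be ranked within their spread. *Vcam1* (0.585 ± 0.392) had the lowest mean, but it overlapped *Alcam* (1.11 ± 0.524), which in turn overlapped *Thy1*. *Cxcl12* (3.23 ± 2.45 RPKM) overlapped *Prom1* (4.23 ± 0.656) and *Thy1* (1.77 ± 0.618) in Isl1_KO, so its place could not be ranked either.

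**Figure D1:**
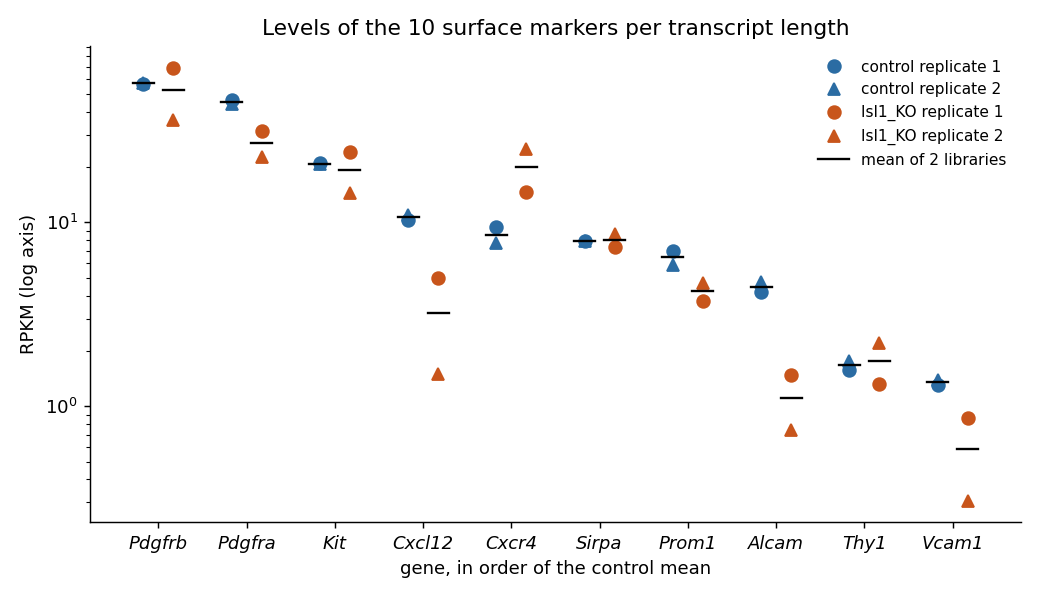
RPKM of each surface marker in each of the 4 libraries on a log axis, with control in blue, Isl1_KO in orange, replicate 1 as circles, replicate 2 as triangles and the mean as a line. The control pairs nearly coincide while the Isl1_KO pairs are spread, most widely for *Cxcl12* (4.97 and 1.5 RPKM) and *Vcam1* (0.862 and 0.307).

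Between the groups, *Alcam*, *Cxcl12*, *Vcam1*, *Pdgfra* and *Prom1* were lower in both Isl1_KO libraries than in either control library, *Cxcr4* was higher in both, and *Pdgfrb*, *Kit*, *Sirpa* and *Thy1* overlapped. None of the 10 passed edgeR's quasi-likelihood test at an adjusted p under 0.05 over all 12715 genes tested, where 2.45% of genes passed (1.94% lower and 0.503% higher in Isl1_KO). At an unadjusted p under 0.05 in edgeR 5 of the 10 passed, against 23.3% of all genes tested. When Isl1_KO replicate 1 or replicate 2 was left out, edgeR called 8 and 7 of the 10, but the spread then came from the control pair alone and 6350 and 4176 of all genes were called as well. DESeq2 called 3 (*Alcam*, *Pdgfra* and *Cxcr4*) at an adjusted p under 0.05, against 4.67% of its genes. With the study's criteria (an absolute log2 fold change above 0.58 and an unadjusted p under 0.05 in DESeq2) 5 of the 10 were called, the same 3 with *Cxcl12* and *Prom1*. Of these 4 were lower and 1 higher, against 5.89% of all genes (4.57% lower and 1.32% higher). *Cxcl12* and *Prom1* no longer met these criteria when either control library was left out, which left 3. *Pdgfra* dropped out without Isl1_KO replicate 2, and *Prom1* without Isl1_KO replicate 1. The 6 genes whose groups did not overlap (5 lower and 1 higher) compare with 58.1% of all genes tested (29.0% lower and 29.1% higher), which is near the same share, so that count says nothing about these 10. The median log2 fold change of the 10 was -0.36, and that of all genes tested was -0.00272.

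**Figure D2:**
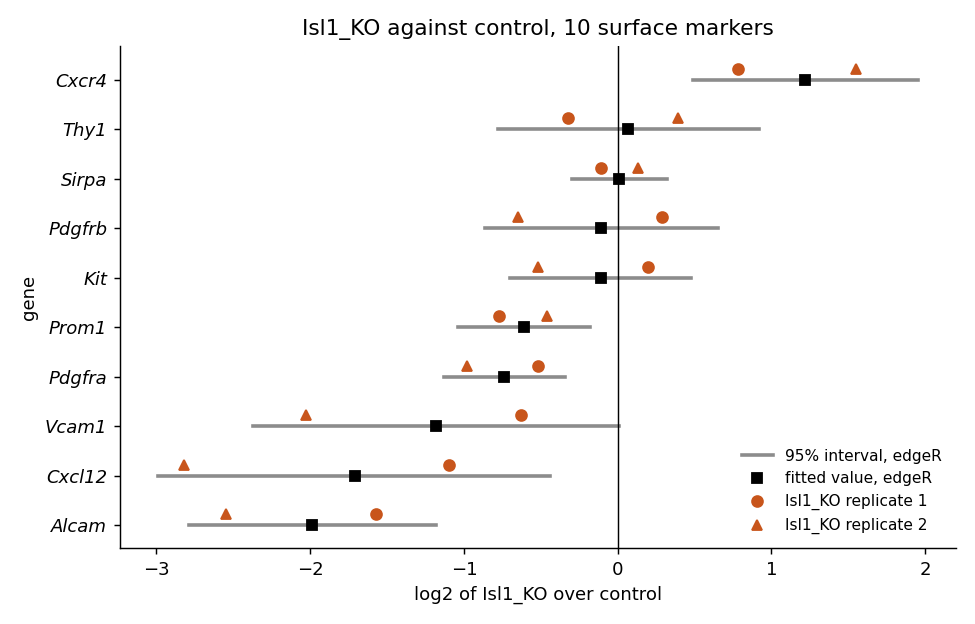
Log2 ratio of Isl1_KO to control for each surface marker, with edgeR's fitted value as a black square, its 95% interval as a grey bar, and each Isl1_KO library over the control mean in orange. The intervals of *Alcam*, *Cxcl12*, *Pdgfra* and *Prom1* lie below 0 and that of *Cxcr4* above 0, and the 2 Isl1_KO libraries lie on opposite sides of 0 for *Pdgfrb*, *Kit*, *Sirpa* and *Thy1*.

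The sequence in front of the gene is shown for the 3 members that DESeq2 called and for *Cxcl12*, the ligand of 1 of them, a choice made after their values were seen. RefSeq promoters (GRCm38.p6, which is a different build from that of the gene positions below) were at hand for 6 of the 10 members, *Pdgfra*, *Alcam*, *Kit*, *Cxcr4*, *Cxcl12* and *Prom1*. The 250 bases upstream of the start site are printed 5′ to 3′ on the strand of the gene, with capitals marking CG dinucleotides, for *Alcam* (chr16:52453082-52453331), *Cxcr4* (chr1:128592300-128592549), *Cxcl12* (chr6:117168285-117168534) and *Pdgfra* (chr5:75152001-75152250).
Alcam: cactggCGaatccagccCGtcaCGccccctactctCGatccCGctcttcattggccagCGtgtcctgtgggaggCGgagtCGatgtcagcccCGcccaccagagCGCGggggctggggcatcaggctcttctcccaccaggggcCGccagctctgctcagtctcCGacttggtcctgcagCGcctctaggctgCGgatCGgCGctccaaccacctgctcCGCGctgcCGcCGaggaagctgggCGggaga
Cxcr4: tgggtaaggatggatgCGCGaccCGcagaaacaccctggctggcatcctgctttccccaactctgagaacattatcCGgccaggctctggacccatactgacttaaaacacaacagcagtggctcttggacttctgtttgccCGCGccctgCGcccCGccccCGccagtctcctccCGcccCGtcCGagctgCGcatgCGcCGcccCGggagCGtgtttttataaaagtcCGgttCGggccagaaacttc
Cxcl12: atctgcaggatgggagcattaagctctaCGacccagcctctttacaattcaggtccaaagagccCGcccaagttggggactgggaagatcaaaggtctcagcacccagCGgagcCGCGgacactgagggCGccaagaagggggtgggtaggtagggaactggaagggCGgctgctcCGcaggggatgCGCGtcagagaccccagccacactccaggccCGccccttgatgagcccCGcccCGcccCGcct
Pdgfra: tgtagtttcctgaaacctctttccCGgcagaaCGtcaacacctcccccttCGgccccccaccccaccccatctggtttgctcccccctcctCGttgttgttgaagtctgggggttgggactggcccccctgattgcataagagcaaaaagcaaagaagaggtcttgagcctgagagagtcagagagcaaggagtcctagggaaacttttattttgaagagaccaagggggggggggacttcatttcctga

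These sequences differed in base composition. *Alcam* held 22 CG dinucleotides at 69.2% GC, *Cxcr4* 19 at 61.2%, *Cxcl12* 14 at 64.4% and *Pdgfra* 4 at 54.4%, beside a median of 6 and 52.4% over all 32817 RefSeq promoters of this length. A CG count at least as high was found in 14.8% of promoters for *Alcam*, 19.7% for *Cxcr4*, 29.3% for *Cxcl12* and 62.2% for *Pdgfra*. Both strands were searched for the Isl1 motifs TAATGG and, in its other form, TAATTG. The GATA factor motifs AGATAA and, differing in the first base, TGATAA were searched in the same way, as were TNAAGTG for Nkx2-5 and the CArG box of SRF. None of the upstream sequences of these 6 members held any of them, whereas 13.1%, 16.6%, 10.1% and 1.47% of all promoters held at least 1 match to the respective motif. The absence says only that these letters are not in this window.

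Among the adhesion molecules *Alcam* had the lowest level relative to control. *Alcam* (activated leukocyte cell adhesion molecule; NM_009655, chr16:52249109-52454187, minus strand, NCBIM37) binds itself on neighbouring cells and the lymphocyte receptor Cd6. Of the 4 promoters printed above, that of *Alcam* is the richest in CG. The level of *Alcam* was 20.9 and 23.9 CPM in control and 7.46 and 3.73 CPM in Isl1_KO, so that the Isl1_KO libraries were both far below the control pair. The means, 22.4 ± 2.1 and 5.59 ± 2.63 CPM (SD, n = 2), differed 4-fold, a log2 fold change of -1.99 (SE 0.318, 95% interval -2.79 to -1.18, adjusted p = 0.0529 in edgeR, adjusted p = 4.4e-06 in DESeq2). *Alcam* lay just outside the edgeR threshold, and whether it crossed depended on the setting. Adjusted p in edgeR was 0.0433 with library totals in place of TMM factors and 0.0237 without the filter on low counts. It was 0.0235 with the replicate block and 0.0193 with block and length offset. *Alcam* stayed outside with RLE size factors (0.0516), all transcript entries (0.0578), the length offset alone (0.0587) and a stricter count filter (0.0616). With the control libraries summed to 1, its log2 fold change was -1.99 (SE 0.417). *Alcam* was outside the threshold in that setting, and also without control replicate 1 or 2 (-2.08 and -1.89).

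*Vcam1* (vascular cell adhesion molecule; NM_011693, chr3:115812938-115832606, minus strand), which binds alpha4beta1 integrin, had the fewest counts after *Thy1* in control. Its counts were 39 and 43 in control and 38 and 12 in Isl1_KO, which is 4.43 and 4.71 CPM against 2.92 and 1.04 CPM. Both Isl1_KO libraries were below the control pair, and replicate 2 was well below replicate 1. The 12 counts have an exact 95% Poisson interval of 6.2 to 21.0, apart from the 26.9 to 52.2 of replicate 1. The means differed 2.3-fold (log2 fold change -1.18, SE 0.468, interval -2.37 to 0.01), a difference that did not pass either test (adjusted p = 0.217 in edgeR and 0.387 in DESeq2).

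Of the chemokine pair, the ligand was lower and the receptor higher in Isl1_KO. *Cxcl12* (NM_001012477, chr6:117118553-117131385, plus strand) encodes a secreted chemokine that draws cells carrying Cxcr4. Its level was 58.6 and 62.5 CPM in control, 28.1 CPM in Isl1_KO replicate 1 and 8.5 CPM in replicate 2. Control libraries were thus the higher ones throughout, but the 2 Isl1_KO libraries differed from each other 3.31-fold, about as much as the group means did (60.5 ± 2.76 and 18.3 ± 13.9 CPM, 3.3-fold). The log2 fold change was -1.71 (SE 0.502, interval -2.99 to -0.44, adjusted p = 0.14 in edgeR and 0.27 in DESeq2). All 3 of its transcript entries lay between -1.78 and -1.71.

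*Cxcr4* (NM_009911, chr1:130484776-130488870, minus strand), the G protein-coupled receptor of Cxcl12, was the only member higher in both Isl1_KO libraries. Its level was 17 and 13.9 CPM in control and 26.6 and 45.5 CPM in Isl1_KO. Here replicate 2, the library with the least *Cxcl12*, had the most *Cxcr4*. The means, 15.5 ± 2.21 and 36 ± 13.3 CPM, differed 2.33-fold (log2 fold change 1.22, SE 0.288, interval 0.49 to 1.95, adjusted p = 0.0998 in edgeR and 0.00258 in DESeq2). *Ackr3*, a scavenging receptor that also binds Cxcl12, was 37.1 and 38.4 CPM in control and 46 and 61.3 CPM in Isl1_KO (log2 fold change 0.51, SE 0.158, adjusted p = 0.155 in edgeR).

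The 2 PDGF receptors showed separate patterns, although a test of 1 against the other was not made. *Pdgfra* (NM_001083316, chr5:75548316-75594229, plus strand), the receptor for PDGF-AA and PDGF-CC, was at 302 and 289 CPM in control and 205 and 149 CPM in Isl1_KO, with no overlap between the groups. The means of 295 ± 9.24 and 177 ± 39.7 CPM differed 1.67-fold (log2 fold change -0.74, SE 0.156, interval -1.13 to -0.34), with an adjusted p of 0.0862 in edgeR and 0.00142 in DESeq2. The 5 transcript entries of *Pdgfra* lay between -0.86 and -0.73. *Pdgfrb* (NM_001146268, chromosome 18, plus strand), the receptor for PDGF-BB and a marker of pericytes, was at 305 and 309 CPM in control, 375 CPM in Isl1_KO replicate 1 and 195 CPM in replicate 2. The control pair therefore sat between the 2 Isl1_KO libraries, and the fitted log2 fold change was -0.11 (SE 0.296, interval -0.86 to 0.65, adjusted p = 0.862 in edgeR). Its counts were high, 2245 to 4875 in Isl1_KO, so counting error is small beside that gap.

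*Kit* (NM_001122733, chr5:75970941-76052747, plus strand), the receptor for stem cell factor, lies near *Pdgfra* on chromosome 5 and had, like *Pdgfrb*, its control pair between the 2 Isl1_KO libraries. Its level was 108 and 107 CPM in control, 124 CPM in Isl1_KO replicate 1 and 75 CPM in replicate 2. The fitted log2 fold change was -0.11 (SE 0.231, interval -0.70 to 0.48, adjusted p = 0.81 in edgeR). Of 7 other genes around *Pdgfra* and *Kit*, 6 could be tested, and none had a p under 0.05 in edgeR before adjustment. Their log2 fold changes ran from -0.18 to 0.11, so *Pdgfra* lay outside the range of its tested neighbours. *Gsx2* had at most 1 count in a library.

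*Prom1* (NM_001163577, chr5:44384864-44493271, minus strand), a membrane protein of cell protrusions, was at 26.1 and 21.8 CPM in control and 14 and 17.4 CPM in Isl1_KO. The groups did not overlap, and the means of 23.9 ± 3.06 and 15.7 ± 2.44 CPM differed 1.52-fold (log2 fold change -0.61, SE 0.169, adjusted p = 0.13 in edgeR and 0.201 in DESeq2). An exon of *Prom1* overlaps the gene *Gm16401* on the other strand, and counting took reads of both strands, so reads of the pair cannot be told apart. *Sirpa* (NM_001291020, chr2:129418571-129457964, plus strand), the receptor that reads Cd47 on neighbouring cells, had the smallest gap of the 10 between the Isl1_KO libraries. Its level was 30.4 and 30.3 CPM in control and 28.1 and 33.2 CPM in Isl1_KO, on both sides of the control pair. The log2 fold change was 0.01 (SE 0.123, interval -0.30 to 0.32, adjusted p = 0.967 in edgeR), and its 6 transcript entries lay between -0.01 and 0.02. The related genes *Sirpb1a* and *Sirpb1b* were listed at 0 counts in each library. *Thy1* (NM_009382, chr9:43851467-43856662, plus strand), a lipid-anchored protein of fibroblasts, neurons and T cells, was read 24 and 28 times in the control libraries and 30 and 44 times in the Isl1_KO libraries. These counts are 2.72, 3.06, 2.31 and 3.82 CPM, which overlap, and the exact 95% Poisson intervals of its 4 counts reach from 15.4 to 59.1 and overlap one another. Its log2 fold change of 0.07 (SE 0.335, interval -0.78 to 0.92, adjusted p = 0.922 in edgeR) leaves room for a change of either sign at this depth.

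The 2 Isl1_KO libraries were then compared with each other. The absolute log2 ratio of replicate 2 to replicate 1 had a median of 0.75 over the 10 genes and 0.19 over all genes tested. Of the 10, 6 were lower in replicate 2, against 48.3% of all genes tested. The gap of *Cxcl12* (log2 -1.71) was exceeded by 1.12% of genes tested, that of *Vcam1* (-1.40) by 2.06%, that of *Alcam* (-0.98) by 5.4% and that of *Pdgfrb* (-0.94) by 5.84%. *Cxcr4* (0.77), *Thy1* (0.70), *Prom1* (0.32) and *Sirpa* (0.24) went the other way. Replicate 2 was also the library with the lowest sum of the fibroblast and feeder cell list (496 CPM), the pericyte and smooth muscle list (1069 CPM), the endothelial list (94.6 CPM), the blood list (277 CPM) and the neural crest list (8.16 CPM). The cardiomyocyte (25.9 CPM), endoderm (99.2 CPM) and neural progenitor (194 CPM) sums were lowest there too. All 7 tested genes of the fibroblast and feeder cell list were lower in replicate 2 than in replicate 1. In the pericyte and smooth muscle list 5 of 6 were, and *Notch3* was higher (299 and 358 CPM). In the blood list only 2 of 5 were lower. The low blood sum came with *Hbb-bh1* (160 and 42 CPM), while *Tal1* (58.3 and 90.1), *Runx1* (102 and 110) and *Gata1* (14.5 and 16.4) were higher in replicate 2. *Epcam* (endoderm, 3 of 5 lower) and *Sox2* (neural progenitor, 2 of 3 lower) were higher there too. The pluripotent cell list was the highest in replicate 2, 25.2 CPM against 10.7 to 12.9 CPM elsewhere. Whether these shifts account for the gaps in the 10 genes was not tested.

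**Figure D3:**
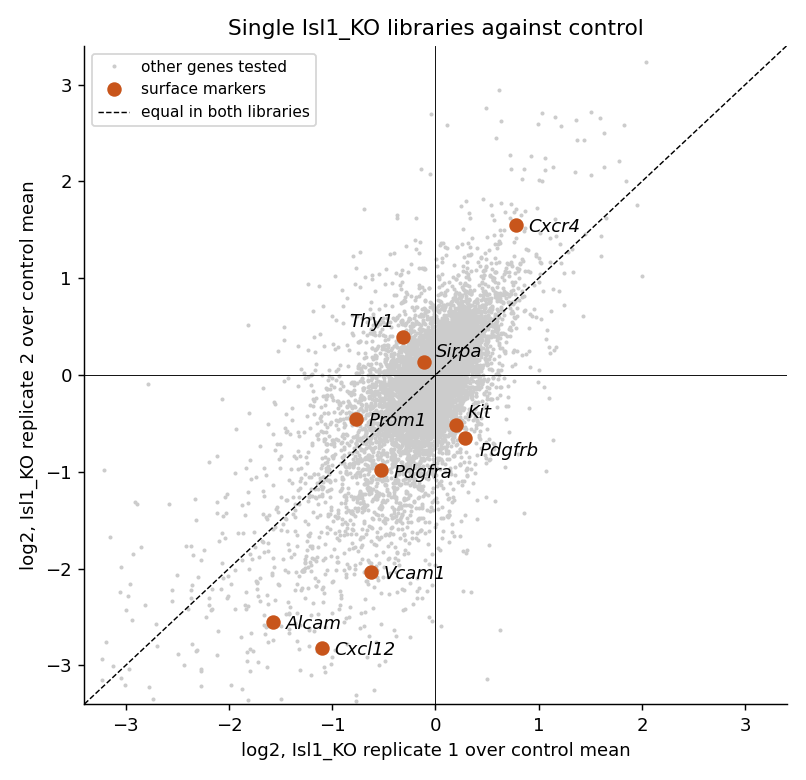
Log2 ratio to the control mean in Isl1_KO replicate 1 (horizontal) and replicate 2 (vertical) for the 10 surface markers in orange and the other genes tested in grey, with the dashed line where the 2 are equal. *Cxcl12*, *Vcam1*, *Alcam*, *Pdgfra*, *Kit* and *Pdgfrb* lie below the line and *Cxcr4*, *Prom1*, *Sirpa* and *Thy1* above it. The axes stop at 3.4, which leaves out 112 genes.

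Ligands and counter-receptors of the 10 were followed in a list of 11 genes, of which 9 could be tested. In edgeR 1 of them was called, *Kitl*, and it was lower, against 2.45% of all genes tested (1.94% lower). *Kitl*, the stem cell factor that binds Kit, was at 78.7 and 81.6 CPM in control and 46.8 and 44.7 CPM in Isl1_KO. Unlike its receptor, it was alike in the 2 Isl1_KO libraries, and it fell by 0.81 on the log2 scale (SE 0.0768, adjusted p = 0.015 in edgeR and 3.2e-05 in DESeq2), from 80.1 ± 2.09 to 45.7 ± 1.51 CPM. The edgeR call was lost when either control library was left out (0 of the list called). At an unadjusted p under 0.05 in edgeR 4 of the 9 passed, which were *Kitl*, *Ackr3*, *Pdgfa* and *Pdgfd*, against the 23.3% of all genes. *Pdgfa*, a ligand of Pdgfra, was at 16.3 and 14.9 CPM in control and 9.53 and 9.54 CPM in Isl1_KO (log2 fold change -0.71, SE 0.143, adjusted p = 0.0779 in edgeR). *Pdgfc* and *Pdgfb* stood at -0.30 (SE 0.349) and 0.17 (SE 0.126), with overlapping libraries in both cases. Exons of *Pdgfa* and *Pdgfc* overlap *6330403L08Rik* and *Gm16000* on the other strand. As for *Prom1*, reads of such a pair cannot be told apart. *Pdgfd* was read 11 and 13 times in the control libraries and 3 and 5 times in the Isl1_KO libraries, the last values at or close to the floor of 3 counts. *Cd6*, which binds Alcam, had at most 2 counts in any library and was not tested. The median log2 fold change of the 9 was -0.23, with a range from -1.99 to 0.51.

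Relatives of the members by family (7 genes, 4 tested) had none called in edgeR and 1 at an unadjusted p under 0.05, the integrin ligand *Icam1* (log2 fold change -0.48, SE 0.176, adjusted p = 0.196). DESeq2 called none of them either. Among 12 other surface genes of mesoderm and cardiac progenitors, edgeR called 1 and DESeq2 3 at an adjusted p under 0.05 (against 2.45% and 4.67% of all genes), and 6 had an unadjusted p under 0.05 in edgeR (against 23.3%). *Hcn4*, a pacemaker channel of early cardiac cells, was at 17.6 and 17.4 CPM in control and 1.08 and 1.21 CPM in Isl1_KO, and fell by 3.92 on the log2 scale (SE 0.195, adjusted p = 0.00277 in edgeR). *Flt1* and *Cdh11* were higher and passed in DESeq2 only. *Flt1*, a VEGF receptor, had a log2 fold change of 0.63 (SE 0.142, adjusted p = 0.0908 in edgeR and 0.0167 in DESeq2). *Cdh11*, a mesenchymal cadherin, had 0.37 (SE 0.0703, adjusted p = 0.0716 in edgeR and 0.0421 in DESeq2). The median of the 12 was -0.35.

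**Figure D4:**
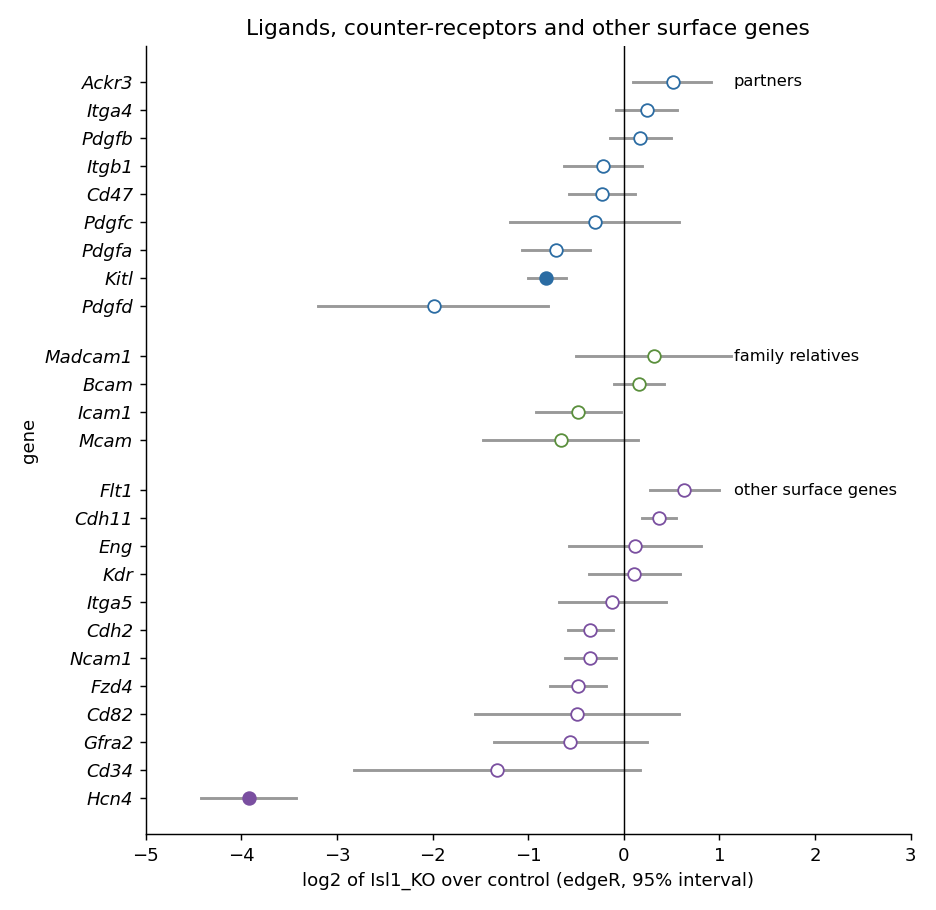
Fitted log2 ratio of Isl1_KO to control with its 95% interval in edgeR for ligands and counter-receptors (blue), family relatives (green) and other surface genes (purple) that could be tested. Filled points mark an adjusted p under 0.05, which *Kitl* and *Hcn4* reached, and open points did not.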

How the data were processed

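The authors aligned reads with STAR to mm9, allowing introns of 20 to 500000 bases, and counted exonic reads of both strands per RefSeq transcript with analyzeRepeats.pl, without adjustment; tool versions are not given in the sources used here. The deposited table holds raw counts, RPKM made by the authors with edgeR, and transcript lengths. Its columns of the authors' own DESeq2 comparison (log2 fold changes, Wald score, p-values and the mean signal) were not used. The deposited RPKM were not used either.

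The raw counts were tested. Transcripts of a gene share reads, so the entry with the most counts stood for each symbol. edgeR 4.0.16 in R 4.3.3 (TMM, filterByExpr, quasi-likelihood F test) compared Isl1_KO with control in all 4 libraries without covariates, and Benjamini-Hochberg adjusted p-values over the 12715 genes tested, with a call at an adjusted p under 0.05. CPM used the TMM library sizes, and RPKM was CPM per kilobase of the kept entry. Ratios of single libraries added 0.1 CPM. DESeq2 1.42.0 gave the second test and the study's criteria. Standard errors came from each coefficient and its F statistic. An exact permutation test of 2 libraries against 2 cannot go below p = 0.333, so none is given. The p-values measure the spread between these libraries, which may be technical in control, where the pair differed little more than by counting error. Intervals of counts and the floor of 3 counts (0.231 to 0.341 CPM) cover counting error only. The scripts were tested on simulated counts.

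The members and lists were chosen with earlier results of these data known. All 10 members are named, then every called gene among partners, family relatives, other surface genes and chromosome neighbours, and every gene that binds a member called by any of the tests; genes named beside a count of 5 or fewer were chosen after their values were seen. Positions came from the GENCODE M1 annotation (NCBIM37). The replicate numbers were not taken as pairs, because the titles give only group and number. Same-numbered libraries did not deviate together (correlation 0.0144). That correlation cannot decide on pairing, because the control pair differed little more than by counting error. Alternatives were other size factors, filters, DESeq2, all transcript entries, a length offset, a replicate block, leaving out each library and, chosen after seeing the data, the control libraries summed to 1.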

Additional observations from a re-analysis of the deposited data

How the results depend on the processing

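With all 4 libraries kept, 10 alternatives gave 100 values for the 10 members. All 100 kept their direction, 91 stayed on the same side of the threshold and 9 newly passed it. The newly passing values were *Alcam* at -1.99 (library totals only), -1.97 (no filter), -1.99 (DESeq2), -2.03 (replicate block) and -1.98 (block and length offset), *Pdgfra* at -0.73 (DESeq2), -0.75 (replicate block) and -0.69 (block and length offset), and *Cxcr4* at 1.22 (DESeq2). Members called went from 0 to 1 with library totals only, 1 with no filter, 3 in DESeq2, and 2 with the replicate block, with or without the length offset. The block moved the calls among other surface genes from 1 to 2, with or without the offset, and those among all genes from 311 to 454. DESeq2 called 3 other surface genes and 604 of all genes, and its adjusted p left 3 of the 5 members that met the study's criteria. *Prom1* no longer met them with the replicate block (4 members). Over all genes, 492 were called with no filter, and 464 of the 21072 entries when every transcript entry was kept. With the control libraries summed to 1, *Kitl* was lost and partner calls fell to 0, with 31 calls over all genes.

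Leaving out each library in turn gave 0 to 8 members called, 0 to 7 partner genes, 1 to 12 other surface genes and 3 to 6 members by the study's criteria. The lone library left in a group was assumed to vary like the other group. With 1 Isl1_KO library left out the spread came from the close control pair alone (biological coefficient of variation 1.29%, against 16.3% in Isl1_KO), and 6350 and 4176 of all genes were called, so those counts say nothing about stability. With 1 control library left out 27 and 29 were called. *Pdgfra* ranged from -0.98 to -0.52, *Alcam* from -2.58 to -1.58, *Cxcr4* from 0.79 to 1.56, *Cxcl12* from -2.83 to -1.10, *Vcam1* from -2.12 to -0.64 and *Prom1* from -0.77 to -0.45, with no change of sign. *Pdgfrb* (-0.65 to 0.29), *Kit* (-0.52 to 0.20) and *Sirpa* (-0.11 to 0.13) changed sign without Isl1_KO replicate 2, to 0.29, 0.20 and -0.11. *Thy1* (-0.33 to 0.40) did so without Isl1_KO replicate 2 (-0.33) and without control replicate 1 (-0.01). The direction of these last 4 genes therefore rests on which library is kept.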
